A study of Mus musculus with 2 samples.

Results

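The genes described here are 40 genes of glycolysis and of the response to low oxygen, set by name: 15 glycolytic enzymes, 11 genes of glucose and monocarboxylate transport, lactate formation and the switches around pyruvate, 5 regulators of oxygen sensing and 9 genes known to be induced in hypoxia. Every probe whose annotated gene was a member was taken, which gave 54 of the 25697 probes on the array, for 35 of the 40 genes. Gpi1, Eno1, Ldhb, Ankrd37 and Ero1a had no probe named here and were not analysed. Of the 35 genes, 25 were detected on both arrays by their brightest probe, 1 with Fgf2 only, 1 without Fgf2 only and 8 on neither.

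The study profiled mouse embryonic fibroblasts, connective tissue cells taken from the embryo and grown in culture, with an Illumina bead array of total RNA. One culture is labelled as given Fgf2, a growth factor that signals through receptor tyrosine kinases and the ERK cascade, and the other as given no agent. Both are labelled male, and the sources used here give no strain, passage, dose of Fgf2 or length of exposure. With 1 array per group there are no replicates, no p-value is given, and the spread between cultures is unknown. According to the design text neither culture had Fgf2, but titles and agent labels name 1 as treated, and the direction of every difference rests on the titles and agent labels.

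Glycolysis splits glucose into pyruvate in the cytosol and yields ATP without oxygen. Glucose enters through facilitative transporters, is trapped by hexokinase, is committed by phosphofructokinase, and leaves as pyruvate, which lactate dehydrogenase reduces to lactate or which the mitochondrial pyruvate dehydrogenase oxidises. When oxygen is present, prolyl hydroxylases of the Egln family mark the alpha subunits of hypoxia-inducible factors for ubiquitination by the Vhl complex. When oxygen is scarce the factors accumulate, bind response elements with a core of ACGTG or GCGTG, and raise transcription of most glycolytic genes and of genes such as Bnip3, Car9 and Egln3 itself.

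The promoter windows of 4 members are shown because they hold the cores of that element in genes at opposite ends of the differences and in genes between them. Egln3 had the highest difference of all members and Pfkp the lowest. Slc2a1 and Ldha, long known as targets of the factor, lay between them, at 0.01 and 0.22. The 250 bases before the RefSeq gene start (build GRCm38.p6) are given 5′ to 3′ on the strand of the gene, with each ACGTG or GCGTG on either strand in capitals. They lie at chr12:54203875-54204124 (minus strand) for Egln3, chr13:6648772-6649021 (minus) for Pfkp, chr4:119108495-119108744 (plus) for Slc2a1 and chr7:46845554-46845803 (plus) for Ldha. Ldha has 2 starts listed, and the start whose window holds the most ACGTG matches was taken, so its count is a maximum over the 2 starts.
Egln3: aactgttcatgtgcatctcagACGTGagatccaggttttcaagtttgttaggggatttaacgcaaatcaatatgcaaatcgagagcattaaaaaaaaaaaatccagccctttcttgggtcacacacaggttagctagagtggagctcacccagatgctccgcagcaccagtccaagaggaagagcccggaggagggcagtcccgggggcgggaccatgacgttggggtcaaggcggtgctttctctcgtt
Pfkp: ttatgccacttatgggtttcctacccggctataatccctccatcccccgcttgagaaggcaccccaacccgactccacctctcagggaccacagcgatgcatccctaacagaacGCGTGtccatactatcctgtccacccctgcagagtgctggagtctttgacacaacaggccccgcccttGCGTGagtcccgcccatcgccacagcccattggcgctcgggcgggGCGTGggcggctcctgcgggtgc
Slc2a1: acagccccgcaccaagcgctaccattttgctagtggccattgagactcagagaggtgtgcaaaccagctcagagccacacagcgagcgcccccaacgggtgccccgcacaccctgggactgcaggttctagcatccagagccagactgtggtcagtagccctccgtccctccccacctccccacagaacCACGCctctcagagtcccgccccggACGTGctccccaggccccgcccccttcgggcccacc
Ldha: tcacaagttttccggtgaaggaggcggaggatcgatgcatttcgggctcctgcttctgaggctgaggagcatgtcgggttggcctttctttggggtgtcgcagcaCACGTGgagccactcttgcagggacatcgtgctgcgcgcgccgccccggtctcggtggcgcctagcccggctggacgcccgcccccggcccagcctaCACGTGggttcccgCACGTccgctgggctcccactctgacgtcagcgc

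The Egln3 window held 1 ACGTG, starting 229 bases before the gene start, and no GCGTG. The Pfkp window held 3 GCGTG, starting 136, 68 and 23 bases before the start. The Slc2a1 window held 1 of each, and the Ldha window 5 matches to ACGTG, of which 4 come from 2 palindromes CACGTG that match on both strands and are also E-boxes. Promoters were listed for 36 of the 40 members, all but Slc2a3, Epas1, Bnip3l and Ndrg1. At least 1 ACGTG or GCGTG lay in a window of 32 of these 36, against 41.5% of all 27025 genes listed and 64.1% of the 5691 genes that were also detected on both arrays. These shares are not matched on base composition or on the number of starts per gene. All 10 listed transport, lactate and switch genes and all 7 listed hypoxia targets held a core, and so did 12 of 15 glycolytic enzymes and 3 of 4 regulators. Eno2, Gpi1, Tpi1 and Vhl held none in these windows. Among members detected on both arrays, the 19 with a core had a median difference of 0.04 and a range of -0.87 to 0.90, and the 3 without one a median of 0.18 and a range of -0.42 to 0.62. Genes with the core stood at both ends and in the middle of the differences. With only 3 genes lacking a core, this comparison cannot tell whether the core goes with the direction of a difference.

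Across the array, 10262 probes were detected with Fgf2 and 10564 without it, at a detection p below 0.01, with median signals of 149 on both. Signals include a background whose mean, inferred from the detection p-values, was 128 on both arrays, so that a signal near 128 cannot be told from no transcript. All 11 fibroblast markers with a probe were detected on both arrays, with summed signals over background of 47203 with Fgf2 and 52130 without. They differed both ways, from -2.53 for Col1a1, -1.85 for Col1a2 and -1.80 for Pdgfrb to 1.36 for Pdgfra and 2.39 for Lum, with Vim at 0.22. Of markers of other cell types, 2 of 6 macrophage, 0 of 5 endothelial, 2 of 4 epithelial, 1 of 3 skeletal muscle and 0 of 3 erythroid genes were detected on both. Their summed signals over background were 511 with Fgf2 and 375 without for macrophage genes, 60.3 and 40.1 for endothelial, 409 and 804 for epithelial, and 340 and 783 for skeletal muscle genes. Among them Cd14 was 2.99-fold higher with Fgf2, with signals of 304 with Fgf2 and 176 without, the latter near background. Lyz2, the other detected macrophage marker, was 1.13-fold higher, and Des was 2.14-fold lower. The epithelial markers differed both ways, with Krt8 1.81-fold lower and Krt18 1.28-fold higher. Krt14, detected only without Fgf2, had signals of 158 with Fgf2 and 483 without. The defining markers Pecam1, Cdh5, Ptprc, Adgre1, Cdh1, Myod1 and Myog were detected on neither array. Whether the differences of these markers have a part in the differences below was not tested. Xist, a transcript of the inactive X chromosome, was detected on both arrays although both cultures are labelled male, with signals of 584 with Fgf2 and 477 without. The Y-linked Eif2s3y gave 496 and 575, and the Y-linked Uty 176 and 204, near background, while Kdm5d was detected on neither array. The differences were 0.36 for Xist, -0.28 for Eif2s3y and -0.54 for Uty. In bulk RNA, fewer cells of a type and less RNA per cell cannot be told apart.

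Of the glycolysis and hypoxia genes detected on both arrays, 19 of 25 lay within 1.5-fold between the cultures, and the others were divided between higher and lower. Each difference is the log2 level with Fgf2 minus that without it, after removal of the background, addition of an offset of 16 and quantile normalization. For all 6898 genes with a probe detected on both arrays, the share at least 2-fold higher with Fgf2 was 1.80%, the share at least 2-fold lower was 2.52%, and 4.32% were one or the other. Of the 25 members so detected, 0 were 2-fold higher and 0 were 2-fold lower. At 1.5-fold, 3 were higher (Egln3, Pfkm and Eno2) and 3 lower (Pfkp, Ndrg1 and Hk2), that is 24.0% of the members beside 14.0% of all genes, with 6.76% of all genes higher and 7.25% lower. Without background correction Eno2, Ndrg1 and Hk2 lay within 1.5-fold, as did Eno2 with an offset of 50 and Hk2 with median scaling. The 2 shares were not tested against each other. The median difference of the members was 0.04, their mean was -0.0040, and the median of all genes 0.03. The median absolute difference was 0.34 for members and 0.23 for all genes. The pooled SD of the difference between probes that share a gene was 0.26 (log2) at low, 0.22 at middle and 0.17 at high levels, which covers error within this pair of arrays only.

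**Figure D1:**
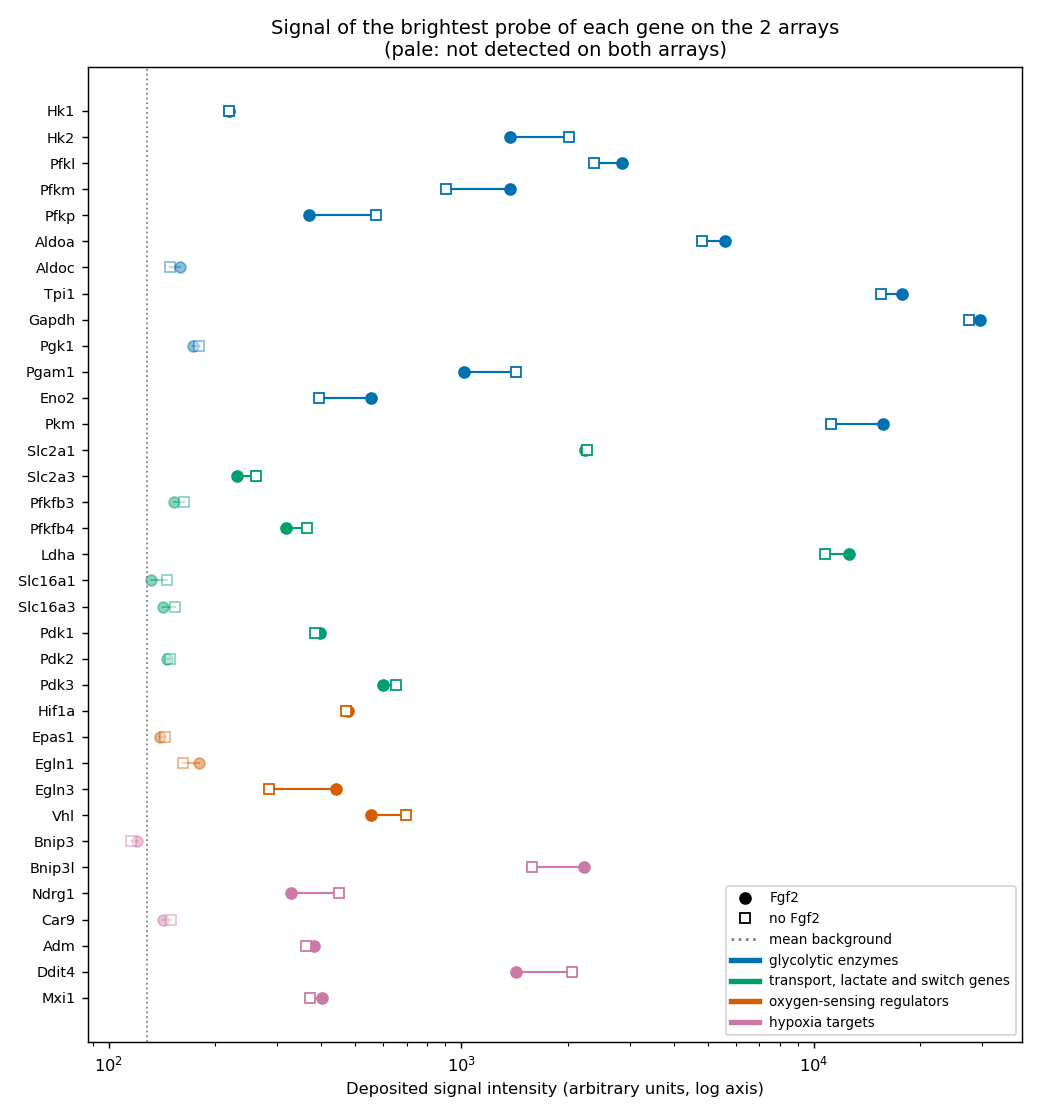
Deposited signal intensity (arbitrary units, log axis) of the brightest probe of each of the 35 genes with Fgf2 (filled circles) and without it (open squares), coloured by role, with the mean background as a dotted line; pale symbols are genes not detected on both arrays. Pairs of symbols lie close together for most genes, and the 10 pale genes sit near the background. Positions of different genes come from different probes and are not comparable as levels.

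**Figure D2:**
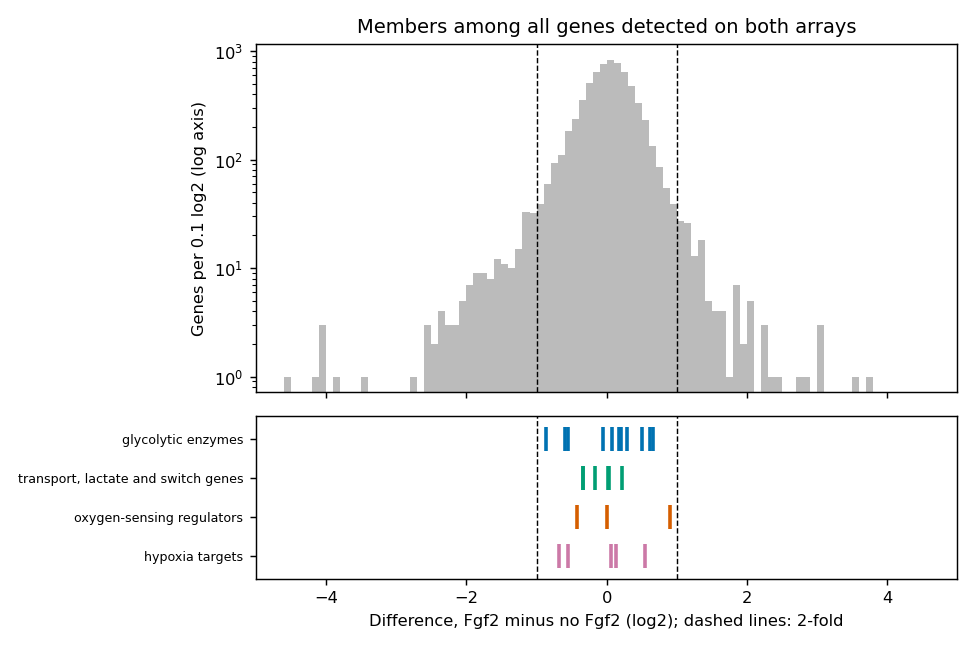
Number of genes per 0.1 of log2 difference (Fgf2 minus no Fgf2, log axis) over the 6898 genes detected on both arrays, above the differences of the 25 members by role, with dashed lines at 2-fold. Every member lies inside the dashed lines, as do all but 4.32% of all genes, whose tails reach -4.52 and 3.71.

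Glucose uptake and the first step differed from gene to gene. Slc2a1, the widely expressed glucose transporter GLUT1, had a signal of 2240 with Fgf2 and 2265 without, a difference of 0.01. Its sign turned to -0.06 with cyclic loess normalization, so it had no direction. Slc2a3, the high-affinity transporter GLUT3, gave 232 with Fgf2 and 261 without, a difference of -0.34, both not far above the background of 128. Hexokinase phosphorylates glucose and so keeps it in the cell. Hk2, its inducible isozyme bound to mitochondria, had a signal of 1371 with Fgf2 and 2025 without, and was 1.51-fold lower with Fgf2 (difference -0.60, with 6.93% of all genes as far or farther below). Hk1, the constitutive isozyme, gave 220 with Fgf2 and 219 without, a difference of -0.05 whose sign turned under median scaling. The probe of Hk2 was thus lower with Fgf2, and that of Hk1 nearly equal.

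The genes of phosphofructokinase, the committing enzyme whose subunits assemble into tetramers, differed in opposite directions. The brightest probe of Pfkm, the muscle-type subunit, had a signal of 1370 with Fgf2 and 902 without. Its other probes gave 448 and 267 with Fgf2, against 308 and 223 without. All 3 probes were higher with Fgf2, by 0.66, 0.75 and 0.46, a mean of 0.62 ± 0.15 (SD, n = 3 probes). The brightest probe of Pfkp, the platelet-type subunit, gave 369 with Fgf2 and 571 without, and its second detected probe 214 and 266. Both were lower with Fgf2, by -0.87 and -0.62, a mean of -0.74 ± 0.17 (SD, n = 2 probes), while its remaining probe was detected on neither array. Pfkl, the liver-type subunit, had a signal of 2857 with Fgf2 and 2384 without at its detected probe, a difference of 0.28, and its other probe was detected on neither array. Between the brightest probes of Pfkm and Pfkp the differences stood 1.53 apart, and between 1.25 and 1.63 apart over the 12 processing settings tried. Since each is a ratio within the same pair of arrays, this gap shows unequal differences of these transcripts and not which of them is the more abundant. Among all genes, 4.97% were as far above as Pfkm and 3.33% as far below as Pfkp.

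**Figure D3:**
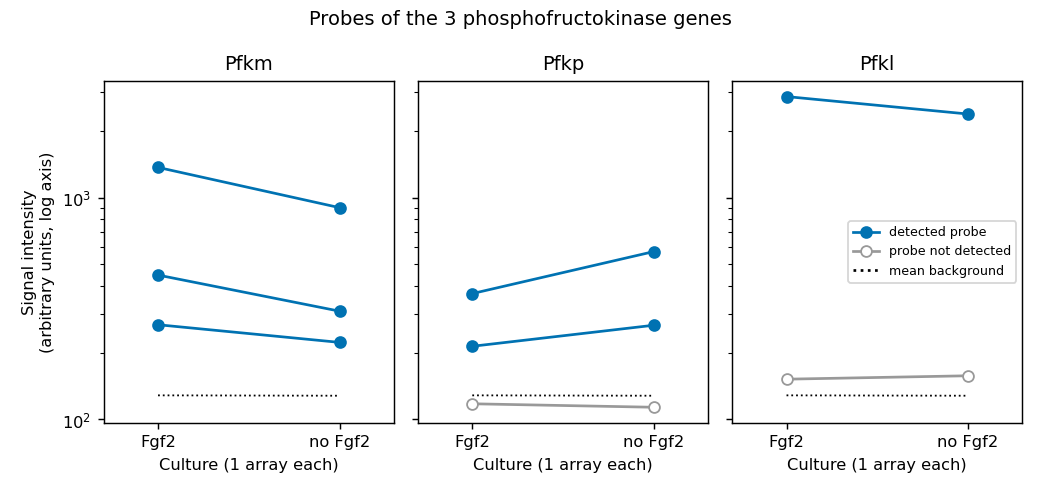
Signal intensity (arbitrary units, log axis) of every probe of Pfkm, Pfkp and Pfkl with Fgf2 (left of each panel) and without it (right), with lines joining the same probe, grey for probes not detected and a dotted line for the mean background. The 3 probes of Pfkm are all higher with Fgf2, and both detected probes of Pfkp are lower.

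From aldolase to pyruvate kinase, Aldoa, Tpi1, Gapdh, Eno2 and Pkm were higher with Fgf2 and Pgam1 was lower, while the only probe of Pgk1 was near background. Aldoa, the aldolase that cleaves fructose bisphosphate, had a signal of 5588 with Fgf2 and 4801 without, a difference of 0.21. Aldoc, the brain-type aldolase, was detected on neither array. The 3 probes of Tpi1, triose phosphate isomerase, were higher with Fgf2 by 0.18, 0.20 and 0.37, a mean of 0.25 ± 0.10 (SD, n = 3 probes). Its brightest probe gave 17777 with Fgf2 and 15506 without. Gapdh, the dehydrogenase often used as a reference gene, differed by 0.07 and 0.15 at its 2 probes, with signals of 29555 with Fgf2 and 27422 without at the brighter. Aldoa, Tpi1 and Gapdh thus all had small positive differences, at every probe detected on both arrays.

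Pgk1, the first ATP-forming kinase of the pathway, has 1 named probe, which was read near background, at 174 with Fgf2 and 181 without. Probes of 1 gene can differ widely, as at Pfkl with 152 and 2857 with Fgf2, so a dim probe does not show a scarce transcript. It counted as detected only without Fgf2, with detection p-values of 0.011 with Fgf2 and 0.0038 without, on either side of the threshold of 0.01. Its bound, 1.08-fold lower with Fgf2, is 0.11 in log2. That is less than the SD of 0.26 between probes at low levels, so Pgk1 had no direction. Pgam1, phosphoglycerate mutase, had a signal of 1020 with Fgf2 and 1432 without, 1.46-fold lower with Fgf2 (difference -0.55). Enolase forms phosphoenolpyruvate, and its neuronal isozyme Eno2 had a signal of 555 with Fgf2 and 395 without, 1.54-fold higher (difference 0.62). Pkm, pyruvate kinase, which makes the second ATP and the pyruvate, had a signal of 15713 with Fgf2 and 11194 without, 1.42-fold higher (difference 0.51). Its probe cannot be assigned here to either of the splice forms of the gene. Pkm and Pgam1, 2 steps apart, thus stood on opposite sides of 0.

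Over the 11 glycolytic enzymes detected on both arrays, 7 had a difference above 0 and 4 below, with a median of 0.18 beside 0.03 for all genes and a range of -0.87 to 0.66. At 1.5-fold, 2 were higher and 2 lower, that is 36.4% of these enzymes beside 14.0% of all genes. The 2 shares were not tested against each other. The median absolute difference of these enzymes was 0.51, beside 0.23 for all genes.

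**Figure D4:**
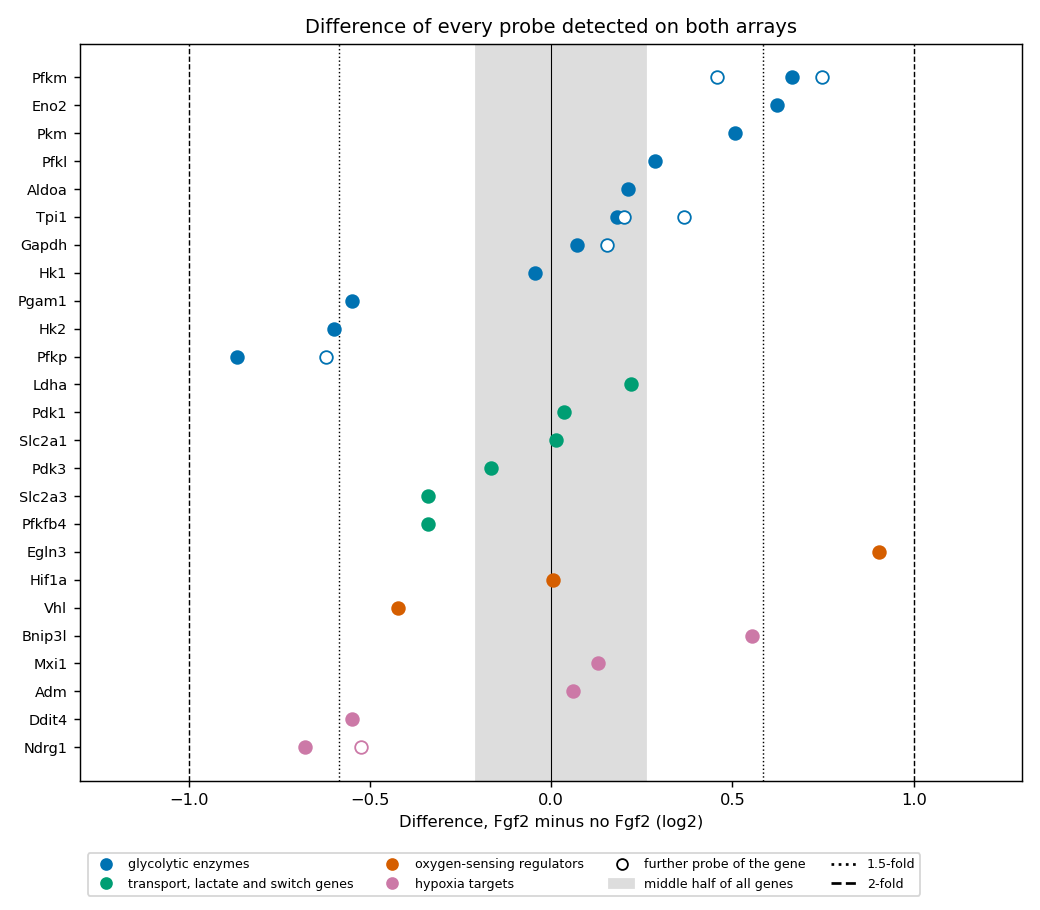
Difference between Fgf2 and no Fgf2 (log2) of every probe detected on both arrays, by gene and role, with filled circles for the brightest probe of a gene and open circles for its further probes; the grey band is the interquartile range of all genes, and dotted and dashed lines mark 1.5-fold and 2-fold. Further probes of Pfkm, Tpi1, Gapdh, Pfkp and Ndrg1 lie on the same side of 0 as the brightest, and no probe passes 2-fold.

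Among the genes that steer pyruvate and lactate, Ldha, the lactate dehydrogenase subunit that favours lactate formation, had a signal of 12591 with Fgf2 and 10729 without, a difference of 0.22. The pyruvate dehydrogenase kinases shut pyruvate out of the mitochondrial oxidation route. Pdk1, the isoform induced by hypoxia-inducible factor, gave 398 with Fgf2 and 385 without, a difference of 0.04. Pdk3 gave 599 and 654, a difference of -0.17, and Pdk2 was detected on neither array. Pfkfb4, a bifunctional enzyme that sets the level of the phosphofructokinase activator fructose 2,6-bisphosphate, had a signal of 319 with Fgf2 and 366 without at its detected probe, a difference of -0.34. Pfkfb3, its isoform with high kinase activity, was detected on neither array, with signals of 153 with Fgf2 and 163 without. Slc16a1 and Slc16a3, the monocarboxylate transporters MCT1 and MCT4, were also detected on neither, and the 3 probes of Slc16a3 disagreed in sign. Of the 6 genes in this group detected on both arrays 3 were above 0 and 3 below, and the median was -0.08. None reached 1.5-fold (0 of 6, beside 14.0% of all genes), and their median absolute difference was 0.19, beside 0.23 for all genes.

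Of the oxygen-sensing regulators, Egln3 differed most. Hif1a, the oxygen-regulated subunit of the factor, had a signal of 476 with Fgf2 and 471 without, a difference of 0.01 whose sign turned with cyclic loess. The array measures its transcript, whereas oxygen acts mainly on the stability of the protein. Epas1, which encodes the related subunit HIF-2 alpha, was detected on neither array by any of its 3 probes. Egln3, the prolyl hydroxylase PHD3 and itself a target of the factor, had a signal of 441 with Fgf2 and 286 without. It was 1.87-fold higher with Fgf2 (difference 0.90), a difference 3.47 times the SD between probes at its level, and 2.35% of all genes were as far above. Its difference was 0.61 without background correction, and its second probe was detected on neither array, so no further probe bears on it.

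Egln1, PHD2, the main oxygen sensor of most cells, was near background, with signals of 180 with Fgf2 and 162 without at its brightest probe. It passed detection only with Fgf2. Its bound, 1.15-fold higher with Fgf2, is 0.20 in log2, less than the SD of 0.26 between probes at low levels. The other probes of Egln1 were detected on neither array and disagreed in sign, at -0.06 and 0.29. Vhl, the substrate receptor of the ubiquitin ligase, gave 555 with Fgf2 and 698 without, 1.34-fold lower with Fgf2 (difference -0.42). Of the 3 regulators detected on both arrays 2 were above 0 and 1 below, and the median was 0.01.

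The hypoxia targets were split as well. Bnip3l, the mitophagy receptor Nix, had a signal of 2223 with Fgf2 and 1590 without, 1.47-fold higher (difference 0.55). Its paralog Bnip3 was detected on neither array, with signals of 120 with Fgf2 and 115 without. Ndrg1, a stress-responsive gene of the N-myc downstream regulated family, had signals of 328 and 285 with Fgf2, against 449 and 355 without, at its 2 probes. Both were lower with Fgf2, by -0.68 and -0.52, a mean of -0.60 ± 0.11 (SD, n = 2 probes). Ddit4, the inhibitor of mTORC1 also called REDD1, which responds to hypoxia and to other stresses, gave 1433 with Fgf2 and 2055 without, 1.46-fold lower (difference -0.55).

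Adm, which encodes the vasodilator peptide adrenomedullin, gave 381 with Fgf2 and 363 without, a difference of 0.06. Mxi1, an antagonist of Myc, gave 403 and 371, a difference of 0.13. Car9, carbonic anhydrase IX and a classical marker of hypoxic cells, was detected on neither array by any of its 3 probes, whose signals lay between 121 and 143 with Fgf2 and between 110 and 150 without. Of the 5 targets detected on both arrays 3 were above 0 and 2 below, with a median of 0.06 and a mean of -0.10, which differ in sign. The targets did not form a group with 1 direction.

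Set against each other, the 11 glycolytic enzymes had a median difference of 0.18 and the 8 hypoxia regulators and targets one of 0.03, beside 0.03 for all genes. The medians stood 0.15 apart, and between 0.07 and 0.19 apart over the 12 settings. The means were closer together, at 0.04 for the enzymes and -7.2e-07 for the regulators and targets. The ranges overlapped almost fully, from -0.87 to 0.66 for the enzymes and from -0.68 to 0.90 for the regulators and targets. No test across cultures was possible, and the 2 groups are not shown to differ.

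**Figure D5:**
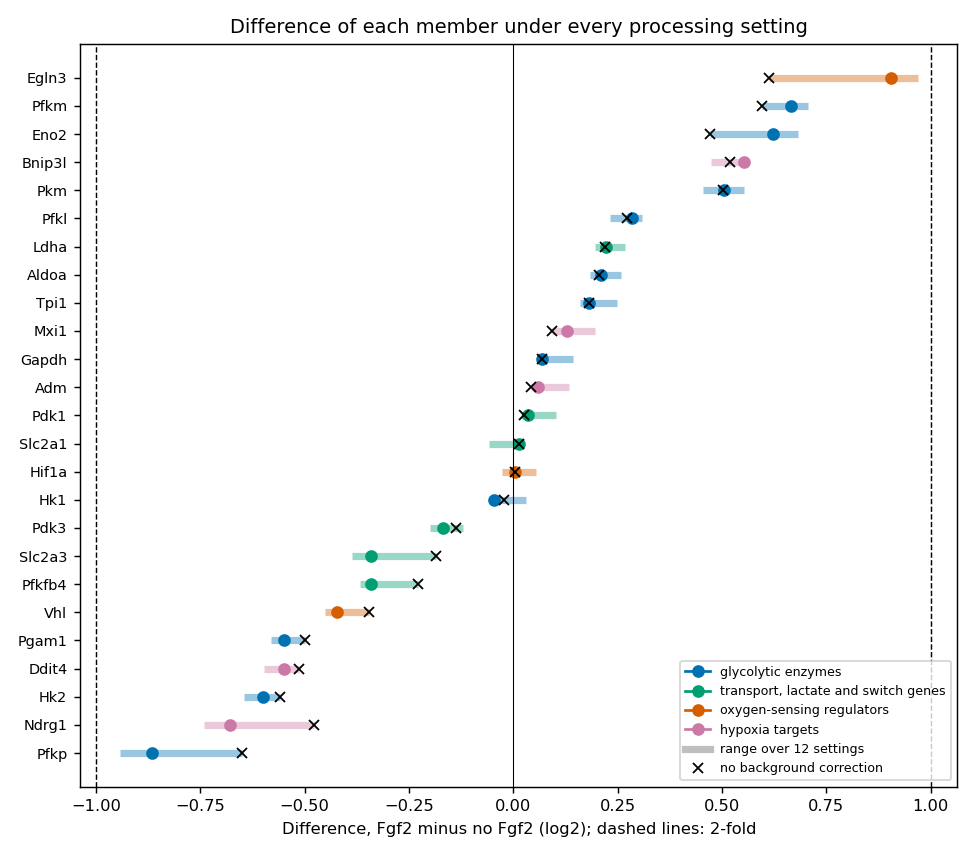
Difference between Fgf2 and no Fgf2 (log2) of each of the 25 members detected on both arrays, ordered by value, with the main value as a circle, the value without background correction as a cross and a bar for the range over the 12 processing settings. No bar reaches the dashed lines at 2-fold, and the bars that cross 0 are those of Slc2a1, Hif1a and Hk1.

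Further genes of these pathways were listed by name, with earlier results of these data known. Of 34 further glycolysis and pyruvate genes 12 were detected on both arrays, with a median of -0.03. Pdp1, a phosphatase that activates pyruvate dehydrogenase, had a signal of 315 with Fgf2 and 192 without, 2.48-fold higher (difference 1.31, or 0.69 without background correction). Dlat, the acetyltransferase subunit of that complex, gave 226 with Fgf2 and 179 without, a difference of 0.74 that was 0.32 at its lowest over the 12 settings. Eno3, the muscle-type enolase, gave 288 with Fgf2 and 585 without, 2.72-fold lower (difference -1.44). The transporter gene Slc2a10 differed by -0.51, and by -0.23 at the least. Eno2 and Eno3 were thus on opposite sides of 0, as Pfkm and Pfkp were.

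The 5 pentose phosphate genes detected on both arrays had a median of 0.14. Of these 5, 0 reached 1.5-fold, beside 14.0% of all genes, and so few genes cannot set the 2 shares apart. Taldo1, transaldolase, was the highest at 0.37 and Rpia, ribose 5-phosphate isomerase, followed at 0.31 (0.19 at its lowest over the settings), while Tkt, transketolase, at -0.01 and H6pd, hexose 6-phosphate dehydrogenase of the endoplasmic reticulum, at 0.06 were the lowest. Of the 5 detected glycogen genes, Ppp1r3c, which targets protein phosphatase 1 to glycogen, was 1.85-fold higher with Fgf2 (difference 0.89, or 0.49 without background correction). Pygl, liver-type glycogen phosphorylase, differed by 0.70, or 0.36 at its lowest over the settings, while Pgm1, a phosphoglucomutase, and Pygb, brain-type glycogen phosphorylase, were the lowest at -0.23 and -0.21.

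Among 8 other oxygen-sensing genes detected on both arrays the median was 0.01. Siah2, a ubiquitin ligase that acts on prolyl hydroxylases, was lowest at -0.71, and Egln2, PHD1, followed at -0.14, with -0.33 and -0.08 as the values nearest 0 over the settings. Cited2, which competes with the factor for its coactivator, was highest at 0.50, and Arnt, the constitutive partner of the factor, differed by 0.26, or 0.12 at its lowest.

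A list of 36 other hypoxia-induced genes was more often below 0 than above. Of the 24 detected on both arrays 8 were above 0 and 16 below, with a median of -0.16, and 1 was at least 2-fold higher and 5 at least 2-fold lower, 20.8% beside 2.52% of all genes. Lox and Loxl2, which cross-link collagen, were lowest at -2.13 and -1.96. Their low values were already known when the list was drawn up, so its direction is no independent support. The other 3 past 2-fold, named after their values were seen, were Vldlr, a lipoprotein receptor, at -1.39, the transcriptional repressor Bhlhe40 at -1.24 and the collagen prolyl hydroxylase P4ha2 at -1.09, or -0.88 without background correction. Errfi1, a feedback inhibitor of EGF receptors, was highest at 1.12 and Angptl4, a secreted inhibitor of lipoprotein lipase, next at 0.80, or 0.56 at its lowest over the settings. Vegfa, the angiogenic factor and a textbook target, named after its value was seen, had a signal of 1777 with Fgf2 and 2279 without, a difference of -0.35.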

How the data were processed

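Total RNA (300 ng) of 1 culture per group was made into biotinylated cRNA and hybridised to bead arrays, per the labels' protocols. Per the file headers, the deposited table gives a linear intensity and a detection p-value for each probe and array. The authors also deposited a processed table, on a log2 scale as judged from its values, with a median of 4.30 in both columns. The submitters' processing notes list BeadStudio 3.2, RMA and lumi without saying what each did, and whether a background was subtracted is not stated there.

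Signals were background-corrected with limma 3.58.1 in R 4.3.3 (normexp, background inferred from the detection p-values, offset of 16), quantile normalized and log2-transformed. Further steps used Python 3.11.15, pandas 2.3.3, numpy 2.4.6 and matplotlib 3.10.9. Detection meant a detection p below 0.01. The platform annotation named 23978 probes, of which 23962 were matched to RefSeq by Entrez number, for 16593 genes. The probe with the highest mean level stood for its gene. A gene detected on 1 array has a bound against the lowest detected level of the dim array (5.99 with Fgf2, 5.87 without), or its own level if higher. With 1 array per group no test was run, counts are of genes past 2-fold or 1.5-fold, and precision is limited by the number of arrays. The steps were tested on simulated arrays with known fold changes. That test checks the code only, since its tolerance is wider than most of the member differences.

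Members, related lists and markers were chosen with earlier results of these data known. Named genes are all members and, of each related list, the 2 highest and the 2 lowest differences among genes detected on both arrays, and any other is marked in the text as named after its value was seen, apart from the cell type and sex-linked markers.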

Additional observations from a re-analysis of the deposited data

How the results depend on the processing

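No paired analysis was possible because each group has 1 array. Results were recomputed with no background correction, subtraction of the mean background, offsets of 50 and 1, median scaling, cyclic loess, the authors' processed table, detection filters at 0.05 on both arrays, at 0.01 on at least one array and none, and the mean of a gene's probes. The number of members at least 2-fold apart was 0 under each of these 11 alternatives and at a threshold of 3-fold, and 6 at 1.5-fold. At 1.5-fold the alternatives gave 2 to 3 members higher and 1 to 4 lower, with Pfkp the only one lower without background correction. The number of all genes at least 2-fold apart, 298, became 162 without background correction, 498 with detection on at least one array, 522 with no detection filter, 966 at 1.5-fold and 94 at 3-fold. Over the settings, with the mean as a further one, the middle value of the glycolytic enzymes ran from 0.04 to 0.23, of the transport, lactate and switch genes from -0.21 to -0.05, of the oxygen-sensing regulators from -0.03 with cyclic loess to 0.22 with the 2 looser detection filters that add Egln1, and of the hypoxia targets from -0.10 as a mean to 0.13. Of 275 recomputed member differences 274 moved by less than 0.22, the SD between probes of a gene, and the other was Egln3 without background correction, at 0.61. Only Hk1, Slc2a1 and Hif1a changed sign, each from a difference of at most 0.05 in size. Signal over background limits Pgk1, Egln1 and the 8 genes detected on neither array.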

Other observations

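A probe of Eno1b, annotated as a retrotransposed copy of enolase 1, had a signal of 1373 with Fgf2 and 1396 without, a difference of -0.04. Eno1 itself had no probe named here, and whether the Eno1b probe also reads Eno1 was not tested. Of the glycolysis and hypoxia genes represented by more than 1 probe detected on both arrays (Gapdh, Ndrg1, Pfkm, Pfkp and Tpi1), all 5 had every such probe on the same side of 0.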
